A study of Danio rerio with 9 samples.

Results

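Interferon response and antiviral genes were examined in cardiac ventricles of adult zebrafish that were homozygous for the hypomorphic *vegfc* allele hu5055 and for the *vegfd* allele uq9bh, labelled vegfc(hy-/-);vegfd(-/-), against ventricles labelled vegfc(+/+);vegfd(+/+). The genes came from a list of 58 symbols covering interferon receptors and JAK-STAT signalling, interferon regulatory factors, sensors of viral nucleic acid, antiviral effectors and antigen presentation by class I MHC. A gene was taken when its identifier in the count table carried a listed symbol in the table of gene names, and 47 of the 58 were found among 16575 genes. RNA-seq had been performed on fresh, uninjured ventricles, with 4 mutant libraries (6 to 9) and 5 control libraries (1 to 5). According to the study's methods the double mutants had been outcrossed to a transgenic reporter line. In that line *lyve1b* sequence drives the fluorescent protein DsRed in lymphatic vessels. The study also describes control fish with this reporter, and the labels do not say which of the sequenced fish carried it. The *vegfc* allele is a partial loss of function, which the study used because *vegfc* null fish do not reach adulthood. The labels give no batch and do not say whether each library came from a separate fish, so the p-values measure the spread between these libraries.

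Interferons are cytokines released by cells that detect viral nucleic acid. In zebrafish, type I interferons bind receptors built from cytokine receptor family B (Crfb) chains, and the kinases Jak1 and Tyk2 then activate Stat transcription factors, which with Irf9 switch on interferon-stimulated genes. Interferon gamma, made mainly by lymphocytes, acts through Jak kinases and Irf1 and raises the genes that cut and load peptides for class I MHC.

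Of the 58 symbols, 6 (*crfb5*, *irf2*, *rigi*, *parp14*, *helz2* and *ifi44d*) had no entry in the table of gene names, and 5 (*ifngr1*, *irf1a*, *ifit8*, *ifit9* and *ifit14*) had a name but no row among the 16575 genes. *cgasa*, *psmb8a* and *psmb9a* are listed there as *cgas*, *psmb8* and *psmb9*. None of the 47 shared its symbol with another row. In the RefSeq annotation of the GRCz12tu assembly, *irf2a*, *mxa*, *mxb* and *ifi44a1* lie on the chromosome of *vegfc* and *ikbke* on that of *vegfd*. A difference of these 5 between genotypes cannot be told apart from one between the parental chromosomes.

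Library totals lay between 23302636 counts in control 2 and 33496006 counts in mutant 7. Expression is given as CPM, that is counts scaled to a common library total after TMM normalization. *vegfd* was 0.368 ± 0.214 CPM in mutant ventricles (SD, n = 4) and 2.60 ± 1.25 CPM in control ventricles (SD, n = 5), with no overlap between the genotypes (edgeR, adjusted p = 0.0195). *vegfc* was 3.80 ± 1.86 CPM in mutants and 2.99 ± 1.71 CPM in controls (SD), with overlap (edgeR, adjusted p = 0.719). Each of the 11 cardiomyocyte marker rows was detected. Their summed level was 91814 to 107238 CPM in mutants and 110631 to 127879 CPM in controls, without overlap. Single rows went both ways, with 8 log2 fold changes below 0 and 3 above, from -0.47 to 2.62. edgeR's quasi-likelihood test called 0 of the 11. At an unadjusted p-value under 0.05 it had 4 lower and 2 higher (6 in all, or 54.5%, against 20.9% of all genes). The part of cardiomyocyte content in the interferon genes was not tested.

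**Figure D1:**
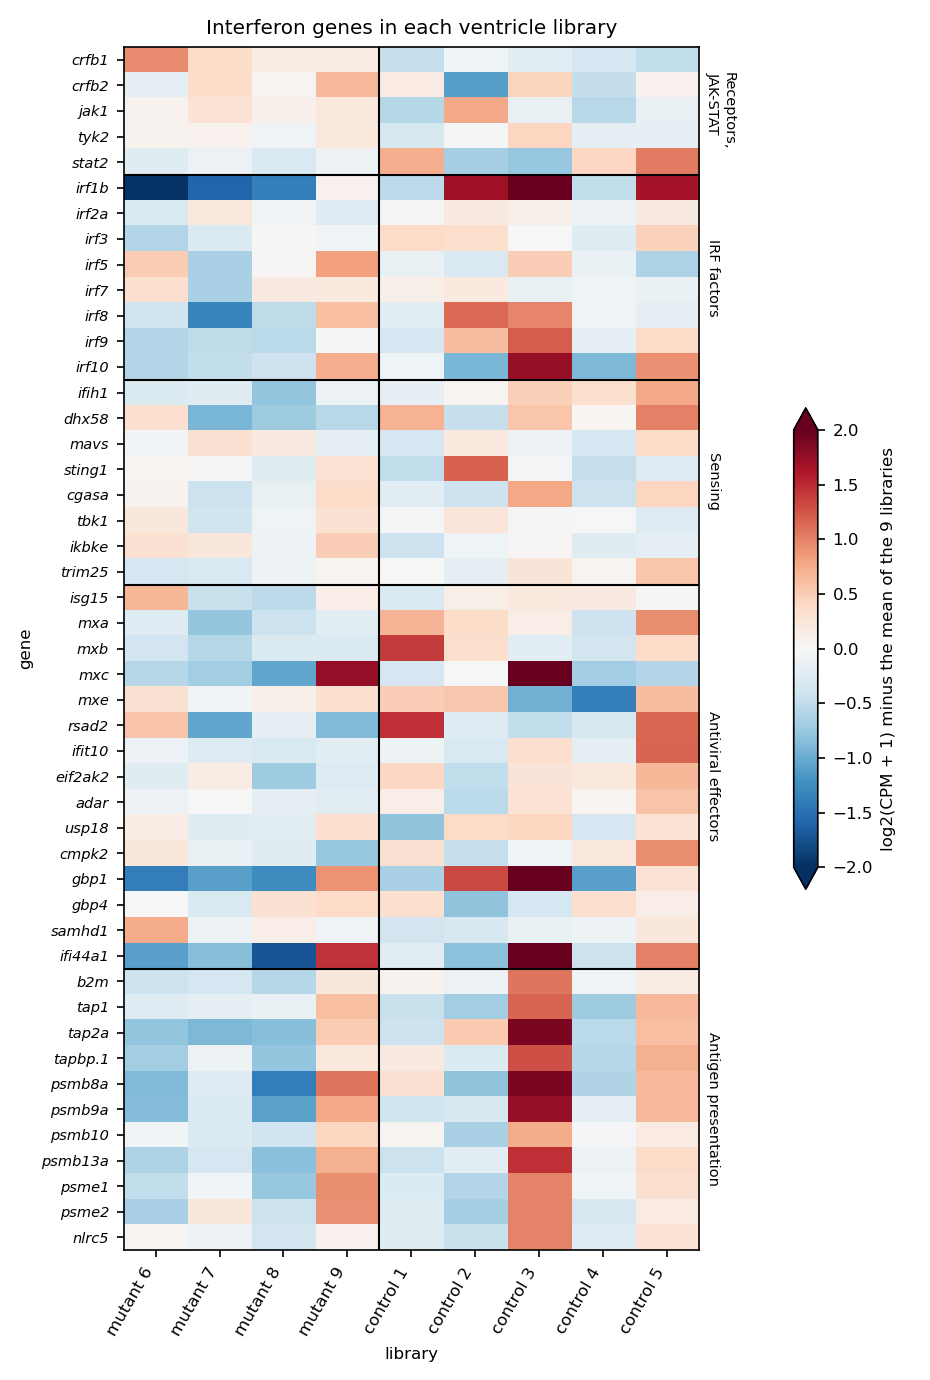
Levels of the 47 interferon genes in each library, as log2(CPM + 1) minus the gene's mean over the 9 libraries (colour, red higher and blue lower than that mean), with mutants 6 to 9 left of controls 1 to 5 and genes grouped by role. Mutant 9 and control 3 are red or pale red through the 11 antigen presentation genes, whereas *rsad2*, *stat2* and *dhx58* are reddest in controls 1 and 5.

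No interferon gene passed the test between genotypes. With edgeR's quasi-likelihood test and Benjamini-Hochberg adjustment over all genes, 0 of the 47 had an adjusted p-value under 0.05, against 3.34% of the 16575 genes (353 higher and 200 lower in mutants). The smallest adjusted p-value was 0.0580, for the receptor gene *crfb1*. At an unadjusted p-value under 0.05, 7 of the 47 (14.9%) were lower in mutants, against 9.87% of all genes, and 2 (4.26%) were higher, against 11.0%. Leaving out mutant 9 brought the number lower to 15 (31.9%, against 8.16% of all genes), leaving out control 2 or control 4 brought it to 11 (23.4%, against 9.32% and 9.39%), and in the other fits with a library left out it was 5 to 8. With all libraries the 7 were *irf1b*, *irf9*, *ifih1*, *dhx58*, *mxa*, *mxb* and *ifit10*, and the 2 were *crfb1* and *ikbke*. One gene, *crfb1*, had all mutant libraries above all control libraries (2.13% of the 47, against 6.07% of all genes), and 0 had all of them below (4.46% of all genes).

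The count of calls depended on the test. edgeR's likelihood ratio test called *crfb1* higher and *irf1b* and *mxb* lower (6.38% of the 47). Among all genes it called 1357 of the 16575, a larger share than among the 47. DESeq2 called *crfb1* higher and *irf1b*, *ifih1*, *mxa* and *mxb* lower (10.6% of the 47). Among all genes DESeq2 called 1666 of the 16575, a share close to that among the 47. It gave no adjusted p-value for 1 of the 47. limma-voom with quality weights called 0 of the 47, and 656 of the 16575 genes.

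The log2 fold changes of the 47 genes (mutant over control) had a median of -0.33, with 34 below 0 and 13 above, where the 16575 genes had a median of -0.01 with 51.3% below 0. The median was -0.72 for the 8 interferon regulatory factors, -0.68 for the 15 antiviral effectors, -0.54 for the 11 antigen presentation genes, -0.26 for the 8 sensing genes and 0.21 for the 5 receptor and JAK-STAT genes. Single libraries moved the median of the 47: it was -0.56 without mutant 9, with 36 genes below 0, and -0.07 without control 3, with 27 below 0. With both left out it was -0.45, with 37 below 0, a check chosen after the data were seen.

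**Figure D2:**
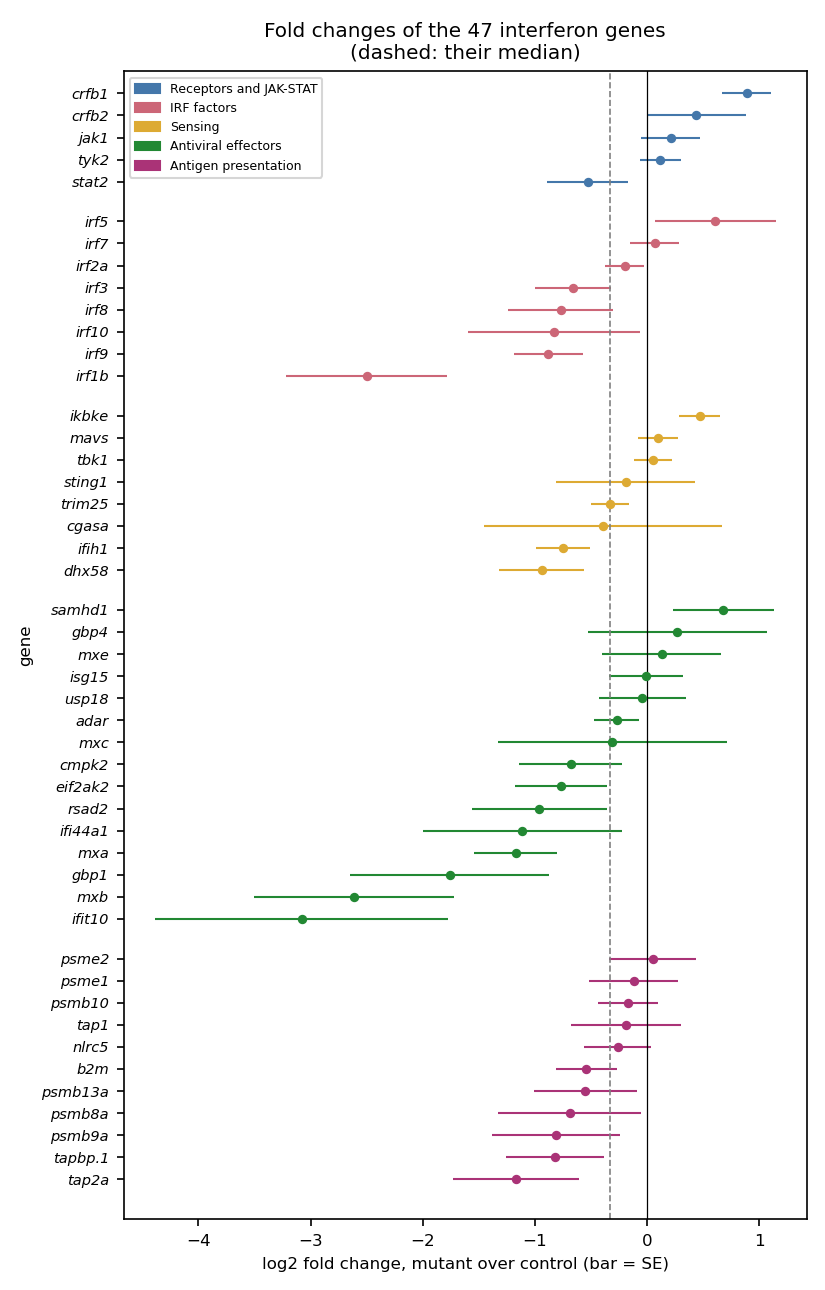
Fitted log2 fold change of each of the 47 interferon genes, mutant over control, with its standard error (bar), sorted within role groups shown by colour. The dashed line is their median of -0.33. The points run from -3.08 for *ifit10* to 0.89 for *crfb1*.

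The overall level of the genes in each library was summarised by a mean score, which is the mean over genes of log2(CPM + 1) minus the gene's mean over the 9 libraries. It was -0.21, -0.32, -0.40 and 0.27 in mutants 6 to 9. In controls 1 to 5 it was -0.03, -0.06, 0.64, -0.26 and 0.38. Mutant 9 thus stood above controls 1, 2 and 4, and control 4 stood below mutant 6. The means were -0.17 ± 0.30 in mutants and 0.13 ± 0.37 in controls (SD), a difference of -0.30 that was smaller than the SD of the control libraries. No test was made on the score, because its genes vary together and were chosen with results of these data known.

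Mutant 9 had the highest level among mutants in 33 of the 47 genes (70.2%), whereas it was highest in 25.5% of all genes. Control 3 was the highest control in 24 (51.1%), whereas it was highest in 16.0% of all genes. Both held in 23 genes (48.9%), against 6.57% of all genes. Control 5 was the highest control in another 13 genes (27.7%), a share close to that among all genes (3804 of the 16575).

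**Figure D3:**
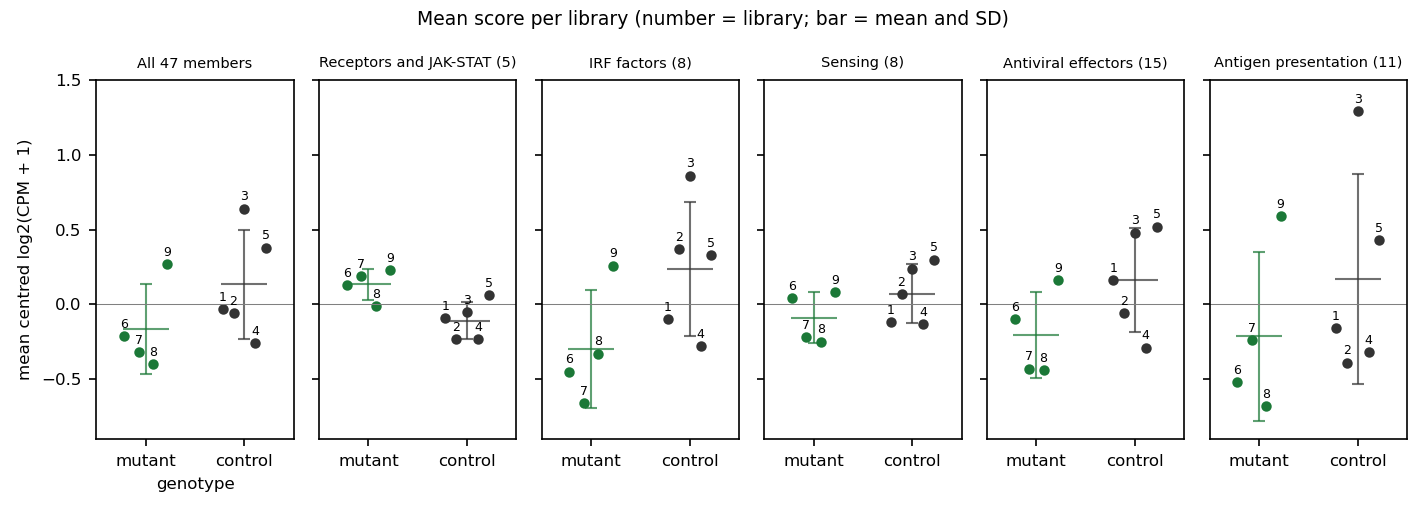
Mean score per library (vertical axis, mean centred log2(CPM + 1)) for all 47 genes and for each role group, with mutants left of controls, each point a numbered library and the bars the mean and SD. Mutant 9 and control 3 lead their genotypes in the antigen presentation panel at 0.59 and 1.29, and the genotypes overlap in every panel.

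The receptor and JAK-STAT genes were the one role group with more fold changes above 0 (4 of 5) than below. *crfb1*, which with Crfb5 forms the receptor for group I interferons in fish, was 11.6, 7.44, 6.30 and 6.30 CPM in mutants 6 to 9. In controls 1 to 5 it was 3.74, 5.17, 4.61, 4.21 and 3.64 CPM. Every mutant library lay above every control library. The log2 fold change was 0.89 ± 0.22 (SE, edgeR, adjusted p = 0.0580), just short of the threshold. When single libraries were left out it stayed between 0.65 and 0.98, and the edgeR adjusted p-value ranged from 0.0612 to 0.133. Both 0.65 and 0.133 came from leaving out mutant 6. *crfb2*, the matching chain for group II interferons, spanned 2.24 to 4.86 CPM in mutants and 0.732 to 4.07 CPM in controls, with a log2 fold change of 0.44 ± 0.44 (SE).

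*stat2*, the Stat protein particular to type I signalling, was nearly level in mutants, at 29.4, 32.0, 28.2 and 32.5 CPM. In controls it was 58.7, 21.6, 20.3, 47.0 and 72.8 CPM. Controls 1, 4 and 5 lay above all mutants, while controls 2 and 3 lay below all of them. The log2 fold change was -0.53 ± 0.36 (SE, edgeR, adjusted p = 0.430). The kinase genes *jak1* and *tyk2* had log2 fold changes of 0.21 and 0.12. *jak1* was 84.0, 98.0, 86.0 and 93.3 CPM in mutants and 53.7, 137, 72.5, 54.4 and 72.0 CPM in controls. All controls but control 2 lay below every mutant. Without control 2 its log2 fold change was 0.52 (edgeR, adjusted p = 0.0851).

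Among the 8 interferon regulatory factors, 6 had fold changes below 0. *irf1b*, a copy of the factor that carries much of the interferon gamma response, had 4.94, 6.69, 7.92 and 23.6 CPM in mutants 6 to 9. Controls 1 to 5 had 15.0, 73.8, 128, 15.4 and 71.9 CPM. Mutants 6 to 8 lay below all controls, and mutant 9 above controls 1 and 4. Its log2 fold change was -2.50 ± 0.72 (SE, edgeR, adjusted p = 0.0893). With single libraries left out the log2 fold change ranged from -3.22 to -2.03 and the adjusted p-value from 0.0620 to 0.198.

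*irf9*, a DNA-binding partner of Stat2, was also highest in mutant 9 among mutants. It was 14.7, 15.5, 15.2 and 21.7 CPM in mutants and 17.6, 35.0, 53.0, 19.4 and 29.5 CPM in controls. Again mutants 6 to 8 lay below all controls and mutant 9 lay above controls 1 and 4. This gave a log2 fold change of -0.88 ± 0.31 (SE, edgeR, adjusted p = 0.144).

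*irf3*, which is activated by sensors before any interferon is made, was 1.35 ± 0.431 CPM in mutants and 2.14 ± 0.618 CPM in controls (SD), and its libraries overlapped. *irf7*, which amplifies interferon production, was 8.58 ± 2.53 CPM in mutants and 8.20 ± 1.0 CPM in controls (SD), and its log2 fold change of 0.07 changed sign without mutant 6 (-0.05). *irf8*, a factor of macrophage development that was picked out after its values were seen, was highest in mutant 9 among mutants (12.2 CPM, against 2.51 to 5.64 CPM in the other mutants). Its controls were split, with controls 2 and 3 at 18.1 and 16.2 CPM and the others at 6.46 to 7.36 CPM. *irf2a*, *irf5* and *irf10* had log2 fold changes of -0.20, 0.61 and -0.83. With a library left out these ranged from -0.33 to -0.12, 0.22 to 0.98 and -1.49 to -0.06, and the value of *irf10* was nearest 0 without control 3.

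In the sensing group the cytosolic RNA sensor genes *ifih1* and *dhx58* had lower means in mutants, with overlap and without passing the test. Another gene of such a sensor, *rigi*, could not be examined. *ifih1* (MDA5, a sensor of long double-stranded RNA) was 5.57, 5.72, 3.60 and 6.30 CPM in mutants, against 6.12, 7.22, 10, 8.87 and 12.4 CPM in controls. The only overlap was mutant 9 above control 1. *dhx58* (LGP2, which modulates that sensor) was 9.35, 3.33, 4.0 and 4.55 CPM in mutants, against 12.2, 4.94, 11.0, 7.39 and 15.4 CPM in controls. Here mutant 6 lay above controls 2 and 4, and the other mutants lay below every control. The log2 fold changes were -0.75 ± 0.24 and -0.94 ± 0.38 (SE), with edgeR adjusted p-values of 0.119 and 0.194.

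The kinase gene *ikbke*, whose product phosphorylates Irf3 and Irf7, was 9.24, 8.70, 6.77 and 10.7 CPM in mutants, against 5.22, 6.86, 7.47, 6.04 and 6.28 CPM in controls. Mutants 6, 7 and 9 lay above all controls and mutant 8 lay among them. The log2 fold change of *ikbke* was 0.47 ± 0.18 (SE, edgeR, adjusted p = 0.161), and it lies on the chromosome of *vegfd*. *tbk1*, its partner kinase, and *mavs*, the mitochondrial adaptor below the RNA sensors, had log2 fold changes of 0.05 and 0.10, and that of *tbk1* was below 0 in 3 of the 9 fits with a library left out.

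*sting1*, the adaptor below the DNA sensor cGAS, was 1.16, 1.07, 0.792 and 1.59 CPM in mutants and 0.494, 3.79, 1.05, 0.535 and 0.770 CPM in controls. Its direction rested on control 2: the log2 fold change was -0.19 with that library and 0.69 without it. *cgasa*, for the DNA sensor itself, had 1 to 25 counts in mutants and 1 to 48 counts in controls, and its libraries overlapped. *trim25*, a ubiquitin ligase of the RNA-sensing pathway, had a log2 fold change of -0.33.

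Of the 15 antiviral effectors, 12 had fold changes below 0, and the 2 furthest below (*ifit10* and *mxb*) belonged to genes with few counts. *mxa*, an interferon-induced GTPase that blocks viral replication, was 1.89, 1.01, 1.55 and 1.94 CPM in mutants. Controls had 4.51, 3.47, 2.77, 1.60 and 5.60 CPM. All mutants lay below all controls except control 4, which sat among them. This gave a log2 fold change of -1.17 ± 0.37 (SE, edgeR, adjusted p = 0.116).

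Its neighbour in the family *mxb* was 0.175, 0.0314, 0.252 and 0.254 CPM in mutants, which is 1 to 8 counts. Controls had 3.06, 0.960, 0.311, 0.189 and 1.01 CPM, or 6 to 99 counts. Control 4 again overlapped the mutants, and control 1 stood far above the rest. On the log2 scale the difference was -2.61 ± 0.89 (SE, edgeR, adjusted p = 0.133). *mxa* and *mxb* both lie on the chromosome of *vegfc*, and the part of linkage in their values was not tested.

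*rsad2* (viperin, an enzyme that makes a chain-terminating nucleotide) was 6.86, 1.60, 3.67 and 1.88 CPM in mutants, against 13.7, 3.43, 2.80, 3.24 and 10.8 CPM in controls. Controls 1 and 5 lay above every mutant, and the other controls lay within the mutant range. Its log2 fold change was -0.96 ± 0.60 (SE, edgeR, adjusted p = 0.394). *isg15*, a ubiquitin-like protein that is among the most widely used reporters of an interferon response, was 5.67, 2.10, 1.94 and 3.66 CPM in mutants and 2.41, 3.57, 3.82, 3.77 and 3.29 CPM in controls. The means of *isg15* were 3.34 CPM in mutants and 3.37 CPM in controls, with a log2 fold change of -0.01 ± 0.33 (SE) that became 0.01 under library size scaling.

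*ifit10*, of a family that binds foreign RNA, had 0 to 4 counts in mutants and 0 to 60 counts in controls, the 60 in control 5 (1.78 CPM). Its log2 fold change of -3.08 ± 1.31 (SE) therefore rested on few counts, and it was -1.77 at its smallest when a library was left out. *samhd1*, *gbp4* and *mxe* had log2 fold changes above 0 (0.68, 0.27 and 0.13), of which the last 2 changed sign in some fits with a library left out. *eif2ak2* (the kinase PKR, which halts translation), *cmpk2*, *adar* (an RNA-editing enzyme) and *usp18* (which removes Isg15 from proteins) had -0.77, -0.68, -0.27 and -0.04, and the last was above 0 in some of those fits.

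**Figure D4:**
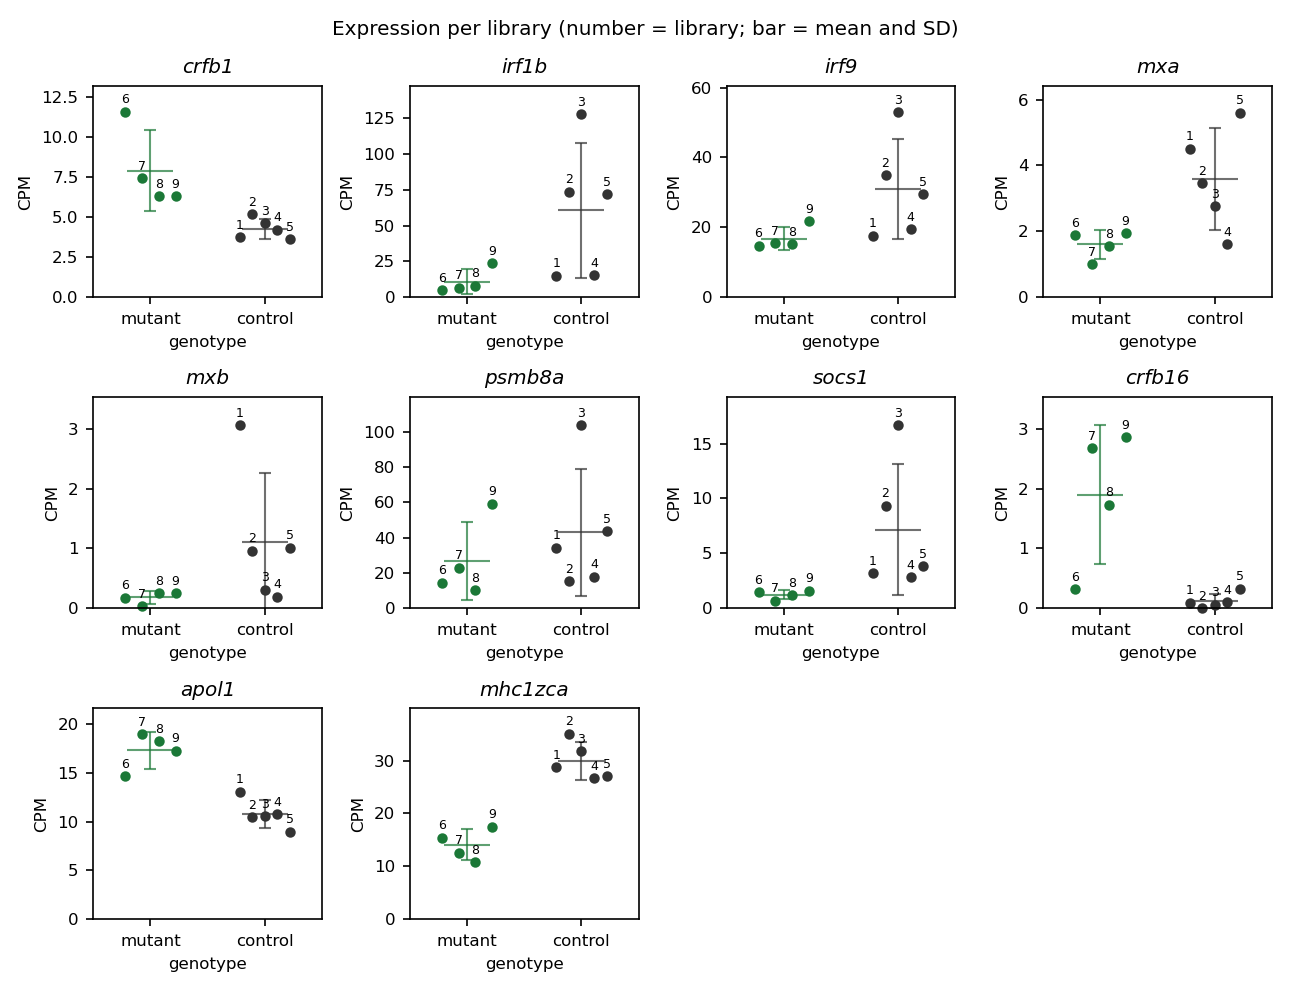
Expression of 10 genes in CPM (vertical axes, each from 0), mutants left of controls, each point a numbered library and the bars the mean and SD. In the panels of *irf1b*, *irf9* and *psmb8a*, mutant 9 and control 3 are the highest libraries of their genotypes. The genotypes do not overlap in *crfb1*, *socs1*, *apol1* and *mhc1zca*.

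The libraries with the highest effector genes were not the same for each effector. Among controls, *rsad2*, *stat2*, *mxa* and *dhx58* were highest in controls 1 and 5. Another set, named after their values were seen, was highest in mutant 9 and in control 3: *gbp1*, *mxc* and *ifi44a1*. *gbp1*, a GTPase that attacks membranes of intracellular pathogens, was 6.41, 8.04, 7.02 and 34.8 CPM in mutants and 11.3, 46.8, 149, 8.05 and 22.4 CPM in controls. *mxc* was 1.09, 0.911, 0.504 and 9.41 CPM in mutants and 1.45, 2.06, 12.9, 0.912 and 1.07 CPM in controls. In control 3, where these 2 genes were highest, *rsad2* and *stat2* were at their lowest among controls (2.80 and 20.3 CPM). The same did not hold for *dhx58* (11.0 CPM in control 3) and *mxa* (2.77 CPM). *irf9* was at its highest among controls in control 3 (53.0 CPM, others 17.6 to 35.0). *isg15* and *usp18* were also highest there, but by little (3.82 CPM against 3.77 in control 4, and 3.71 CPM against 3.52 in control 2).

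*ifi44a1*, an interferon-induced gene on the chromosome of *vegfc*, followed the same libraries, at 6.27, 7.54, 3.67 and 40.9 CPM in mutants and 12.3, 7.68, 97.5, 10.4 and 29.9 CPM in controls. Its log2 fold change was -1.11 ± 0.89 (SE), and -0.05 without control 3. For *gbp1* it was -1.76 ± 0.89 (SE), and -0.65 without control 3. For *mxc* it was -0.31 ± 1.02 (SE), and 1.13 without control 3.

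The 11 antigen presentation genes had one ordering at the top: in each of the 11, mutant 9 was the highest mutant and control 3 the highest control. The score of this group was -0.52, -0.24, -0.68 and 0.59 in mutants 6 to 9, and -0.16, -0.39, 1.29, -0.32 and 0.43 in controls 1 to 5. None reached an unadjusted p-value under 0.05 between genotypes, although 10 of the 11 fold changes were below 0.

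*b2m*, the light chain of class I MHC, was 492, 510, 440 and 767 CPM in mutants, against 690, 605, 1373, 619 and 727 CPM in controls. Mutants 6 to 8 lay below every control, and mutant 9 lay above all of them but control 3. The fitted log2 fold change was -0.54 ± 0.27 (SE, edgeR, adjusted p = 0.280), and was -0.26 without control 3.

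*psmb8a*, a catalytic subunit of the immunoproteasome, was 14.5, 22.9, 10.1 and 59.3 CPM in mutants and 34.4, 15.4, 104, 17.8 and 43.6 CPM in controls. The spread within each genotype was larger than the distance between them, with a log2 fold change of -0.69 ± 0.64 (SE) that was -0.06 without control 3 and -1.44 without mutant 9. *psmb9a*, *psmb10* and *psmb13a* encode further proteasome subunits and had log2 fold changes of -0.81, -0.17 and -0.55 (-0.20, 0.04 and -0.07 without control 3). The proteasome activator genes *psme1* and *psme2* had -0.12 and 0.05, and *nlrc5*, a class I transactivator in mammals, had -0.26. Without control 3 these were 0.18, 0.40 and 0.06.

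Of the genes that carry peptides to class I MHC, *tap2a* was 4.87, 4.43, 4.65 and 13.4 CPM in mutants and 6.61, 13.6, 36.4, 6.04 and 14.4 CPM in controls. Mutants 6 to 8 again lay below all controls. Its log2 fold change of -1.17 ± 0.56 (SE) became -0.56 without control 3. *tapbp.1* (tapasin) had a log2 fold change of -0.82 ± 0.44 (SE), and -0.44 without control 3. *tap1*, the other transporter chain, had -0.19 ± 0.49 (SE), and 0.28 without control 3.

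Markers of leukocytes moved with these libraries. In a list of 40 leukocyte symbols with 37 rows, mutant 9 was the highest mutant in 24 rows (64.9%, against 25.5% of all genes). Control 3 was the highest control in 23 (62.2%, against 16.0%), and both held in 20 (54.1%, against 6.57%). The summed level of the 37 rows was 885, 502, 575 and 1481 CPM in mutants 6 to 9, and 652, 527, 1620, 717 and 506 CPM in controls 1 to 5. More than any other rows, *cd74a* and *cd74b*, copies of the class II MHC invariant chain, made up these sums, with 828 CPM in mutant 9 and 1084 CPM in control 3. The other 35 rows, a split made after the values were seen, summed to 393, 200, 301 and 653 CPM in mutants and 292, 331, 536, 282 and 216 CPM in controls, with mutant 9 and control 3 still the highest of their genotypes. No row was at 0 in every library. edgeR's quasi-likelihood test called 0 of the 37 between genotypes, with 6 (16.2%) at an unadjusted p-value under 0.05, against 20.9% of all genes. Of these 6, 4 were lower in mutants (10.8% of the 37, against 9.87% of all genes) and 2 higher (5.41%, against 11.0%). The log2 fold changes of the 37 went both ways, with 21 above 0 and 16 below, a median of 0.11 and a range of -3.92 to 4.25. Control 5 had an antigen presentation score of 0.43 at a summed leukocyte level of 506 CPM, the lowest of the controls. Mutant 6 had a score of -0.52 at 885 CPM, a level above every control but control 3. The part of leukocyte content in the interferon genes was not tested, and in bulk RNA fewer cells of a type and less RNA per cell cannot be told apart.

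**Figure D5:**
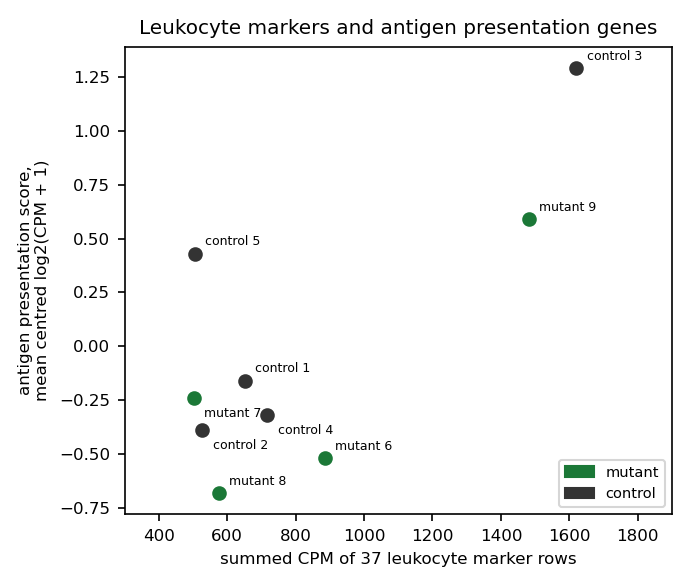
Score of the 11 antigen presentation genes (vertical axis, mean centred log2(CPM + 1)) against the summed CPM of 37 leukocyte marker rows (horizontal axis), each point a library, mutants in green and controls in black. Mutant 9 and control 3 lie apart at 1481 and 1620 CPM. Control 5 has a score of 0.43 at 506 CPM, and mutant 6 one of -0.52 at 885 CPM.

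*cd8a* and *zap70*, T cell genes picked out after their values were seen, were highest in control 3. Other T cell genes of the list, such as *lck* and *cd4-1*, are not described here. *cd8a*, the co-receptor of cytotoxic T cells, was 0, 0.503, 0.180 and 0.286 CPM in mutants and 1.89, 2.24, 8.15, 0.912 and 1.30 CPM in controls. All mutants lay below all controls (edgeR, adjusted p = 0.0636), and the log2 fold change was -3.54. Of the 37 leukocyte rows only 1, that of *cd8a*, had all mutants below all controls, against 4.46% of all genes. Both the likelihood ratio test (0.00314) and DESeq2 (4.72e-04) called it, whereas limma-voom (0.191) and the edgeR fits with a library left out (0.0696 to 0.139) did not. In *cd247l*, another T cell marker of the list that was chosen after its values were seen, the log2 fold change was 0.96 (edgeR, adjusted p = 0.402). *zap70*, a kinase of the T cell receptor, was 0.525, 1.79, 0.720 and 2.67 CPM in mutants and 2.60, 1.74, 13.6, 2.64 and 2.78 CPM in controls. Mutant 9 was not the highest mutant in *cd8a*, and in *zap70* it lay within the range of controls 1, 2, 4 and 5. By contrast *lcp1*, an actin-binding protein of all leukocytes, was 105 CPM in mutant 9 (other mutants 15.2 to 29.6) and 69.6 CPM in control 3 (other controls 22 to 28.8).

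The interferon ligands with a row in the table had few counts. *ifng1*, for interferon gamma, had counts in 4 of the 9 libraries. It was 0, 0.0942, 0 and 0.159 CPM in mutants and 0, 0, 2.60, 0 and 0.267 CPM in controls. The top value was 92 counts in control 3, whereas mutants had at most 5 counts, near the floor of detection. In each genotype the 2 libraries with counts had the highest antigen presentation scores, a match seen only after the values were known. Across genotypes, mutant 7 scored -0.24 with few counts, below control 1 at -0.16 with 0 CPM. The part of *ifng1* in those scores was not tested. *ifnphi1*, a type I interferon, was 0.534 ± 0.177 CPM in mutants and 1.14 ± 0.519 CPM in controls (SD), with overlap (edgeR, adjusted p = 0.220). Both were named after their values were seen.

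Other genes of interferon signalling were counted from a list of 100 further symbols, which gave 60 rows. edgeR's quasi-likelihood test with Benjamini-Hochberg adjustment over all genes called 2 higher and 2 lower (6.67% of the 60, against 3.34% of all genes). At an unadjusted p-value under 0.05, 12 of the 60 were lower, against 9.87% of all genes, and 3 were higher, against 11.0%. The log2 fold changes were above 0 in 22 and below 0 in 38, with a median of -0.17.

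Among the lower genes, *socs1*, a feedback inhibitor of Jak kinases, was 1.47, 0.691, 1.19 and 1.59 CPM in mutants, against 3.18, 9.33, 16.7, 2.80 and 3.82 CPM in controls, with no overlap. It fell by 2.53 ± 0.58 (SE) on the log2 scale (edgeR, adjusted p = 0.0458). It was highest in mutant 9 among mutants and in control 3 among controls. With a library left out the log2 fold change of *socs1* ranged from -2.74 to -1.95, with -1.95 without control 3, and the call held in 2 of the 9 fits (without control 1 or control 4; edgeR adjusted p-values 0.0393 to 0.117 over the 9).

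The 2 higher genes were *crfb16*, of the cytokine receptor family B, and *apol1*, an apolipoprotein L gene. *crfb16* was 0.315, 2.67, 1.73 and 2.86 CPM in mutants (9 to 90 counts) and 0.0927, 0, 0.0566, 0.0943 and 0.326 CPM in controls (0 to 11 counts), so that mutant 6 lay just below control 5. It rose by 3.96 ± 0.83 (SE) on the log2 scale (edgeR, adjusted p = 0.0347), and limma-voom did not call it (0.110). *apol1* was 14.7, 19.0, 18.3 and 17.3 CPM in mutants, against 13.1, 10.5, 10.6, 10.8 and 8.98 CPM in controls, with no overlap. It rose by 0.68 ± 0.14 (SE, edgeR, adjusted p = 0.0349). With a library left out, the call on *crfb16* held in 3 of 9 fits (without mutant 6, control 2 or control 5) and that on *apol1* in 2 (without mutant 6 or control 1).

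Among 21 further rows for class I MHC and peptide loading, from a list of 40 symbols, 1 was called (4.76%, against 3.34% of all genes). *mhc1zca*, a class I heavy chain of the Z lineage, was 15.4, 12.6, 10.8 and 17.5 CPM in mutants, against 28.7, 35.1, 31.8, 26.7 and 27.0 CPM in controls. The genotypes did not overlap and the controls kept within a narrow range, including control 3. It fell by 1.08 ± 0.17 (SE) on the log2 scale (edgeR, adjusted p = 0.0102), and was called in each fit with a library left out (edgeR adjusted p-values 0.0144 to 0.0363). It lies on the chromosome of *vegfc*, so the genotype cannot be told apart from the parental chromosome. Of the 21 rows, 14 had log2 fold changes below 0 and 7 above, and their median was -0.12. The highest was that of *mhc1zea*, also on the chromosome of *vegfc*, at 0.85 ± 0.28 (SE, edgeR, adjusted p = 0.127).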

How the data were processed

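The deposited table holds raw counts per gene, with no normalization and 1 column per library. The authors trimmed paired reads with Skewer, aligned them to GRCz11 with STAR 2.5.2a, counted reads on the annotated strand with featureCounts 1.5.0 above a mapping quality limit, and removed low genes (smallest row mean here 10). Poly(A)-selected stranded libraries had been made from fresh tissue. Near-identical copies lose counts under such a mapping limit.

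Counts were TMM-scaled and tested with edgeR 4.0.16 (R 4.3.3; quasi-likelihood F test, legacy=TRUE, two-sided, Benjamini-Hochberg over 16575 genes, threshold 0.05), without a further filter or covariate, on 4 mutant and 5 control libraries. The procedure was tested on simulated data. Each gene was drawn independently there, so the simulation did not cover genes that vary together between libraries. Scores used log2(CPM + 1).

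Members, role groups and lists were chosen with earlier results of these data known. Genes were named by a rule: the 3 smallest p-values of each role group, 12 symbols whatever their values (*isg15*, *rsad2*, *mxa*, *stat2*, *irf1b*, *irf7*, *irf9*, *ifih1*, *sting1*, *b2m*, *psmb8a*, *tap1*), and called genes of the other lists. One gene that meets it is not reported here. The text gives values for 32 further genes and for *mhc1zea*, which were named after their values were seen. Other settings tried were DESeq2 1.42.0, limma-voom (limma 3.58.1) with quality weights, the likelihood ratio test of edgeR, a robust fit, RLE and library size scaling, filters of 1 CPM in 4 libraries or a mean of 50 counts, a threshold of 0.01, other pseudocounts (0.5, 5), and leaving out each library. Gene symbols came from a table of gene names. Promoter sequences were not used here.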

Additional observations from a re-analysis of the deposited data

Results flagged for a closer look

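For 58 genes and the 6 scores, values were checked within each genotype for a library whose gap to its nearest neighbour was large against the whole range (Dixon's criterion at 95%). Of 128 such groups 23 met it. Chance flags about 1 in 20 groups, but these genes were chosen with results of these data known and are not independent of each other, so the 23 cannot be read against that share. Of the 23, 9 were in mutant 9 and 10 in control 3. No explanation was tested.

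Mutant 9 was the high library in *irf1b* (23.6 CPM, other mutants 4.94 to 7.92), *irf9* (21.7, others 14.7 to 15.5), *irf10* (4.55, others 1.23 to 1.51), *tap1* (8.04, others 3.99 to 4.47), *tap2a* (13.4, others 4.43 to 4.87), *mxc* (9.41, others 0.504 to 1.09), *gbp1* (34.8, others 6.41 to 8.04), *ifi44a1* (40.9, others 3.67 to 7.54) and *lcp1* (105, others 15.2 to 29.6). Control 3 was high in *tap2a* (36.4 CPM, other controls 6.04 to 14.4), *b2m* (1373, others 605 to 727), *mxc* (12.9, others 0.912 to 2.06), *gbp1* (149, others 8.05 to 46.8), *ifi44a1* (97.5, others 7.68 to 29.9), *psmb13a* (48.4, others 12.4 to 22.2), *ifng1* (2.60, others 0 to 0.267), *lcp1* (69.6, others 22 to 28.8), *zap70* (13.6, others 1.74 to 2.78) and *cd8a* (8.15, others 0.912 to 2.24).

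Control 2 stood out in *sting1* (3.79 CPM, other controls 0.494 to 1.05) and *jak1* (137, others 53.7 to 72.5). *mxb* was high in control 1 (3.06 CPM, other controls 0.189 to 1.01) and *crfb16* in control 5 (0.326, others 0 to 0.0943).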

How the results depend on the processing

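The number of interferon genes called was 0 in both directions under the robust fit, limma-voom, both scalings, both filters, the stricter threshold and each fit with a library left out. It was 1 higher and 2 lower under edgeR's likelihood ratio test, and 1 higher and 4 lower under DESeq2. Over all genes the calls numbered 553, against 1357 with the likelihood ratio test, 1666 with DESeq2, 87 at a threshold of 0.01, 196 to 481 with a library left out, and 101 with mutant 9 and control 3 both left out. The median log2 fold change of the 47 genes stayed below 0 throughout, from -0.56 to -0.07 with a library left out, and the score difference from -0.44 to -0.17. Some directions were not stable. With a library left out, log2 fold changes ranged from -0.05 to 0.26 for *irf7*, -0.40 to 0.69 for *sting1*, -0.39 to 0.18 for *isg15*, -0.48 to 0.28 for *tap1*, -2.14 to 1.13 for *mxc*, -1.03 to 0.42 for *cgasa*, -0.05 to 0.17 for *tbk1*, -0.13 to 0.37 for *mxe*, -0.25 to 0.11 for *usp18*, -0.03 to 0.52 for *gbp4*, -0.38 to 0.04 for *psmb10*, -0.60 to 0.18 for *psme1*, -0.34 to 0.40 for *psme2*, -0.39 to 0.06 for *nlrc5* and -0.61 to 0.77 for *lcp1*. *isg15* was 0.01 with library size scaling, *sting1* 0.46, *psme2* -0.11, *tbk1* -0.01, *usp18* 0.12 and *lcp1* -0.22 with limma-voom, and *irf7* -0.03, *tbk1* -0.06, *mxe* -0.15, *gbp4* -0.13, *lcp1* -0.17 and *nlrc5* 0.00 without mutant 9 and control 3. Leaving out a library took *crfb16*, *apol1* and *socs1* over the threshold, to adjusted p-values of at most 0.0893, 0.0940 and 0.117, and leaving out mutant 9 and control 3 together took them to 0.163, 0.153 and 0.129. *socs1* also lost its call with limma-voom (0.135) and library size scaling (0.0504). The cause was not tested. No paired analysis was possible because the genotypes share no replicate numbers. The planned fit without genes that share a symbol had none to leave out among the 47. Genes with few counts, such as *ifit10*, *mxb* and *cgasa*, have a large counting error.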
